A study of Mus musculus with 123 samples.

Results

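At E12.5, Hmga2 divided the single cells into an on and an off group, and the 29 cells of this time point are compared here by that gene. Group 1 held the 14 E12.5 cells with 10 or more Hmga2 counts, and group 2 the 15 E12.5 cells with 0 Hmga2 counts. Together they are all 29 cells labelled E12.5, of 123 cells in the series. Because Hmga2 chose the groups, its own values are given as a description only.

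The cells came from hearts of aMHC-GFP mice, in which the cardiac myosin heavy chain promoter drives GFP, and were sorted as αMHC+ single cells. A Fluidigm C1 chip captured them and SMART-Seq V4 chemistry amplified their RNA. The series also holds 42 cells from E9.5 and 52 from P1, with no treatment and no genotype difference among the time points. At E12.5 the cell titles fall into set C with 20 cells, set N523 with 8 cells and set E12-5b with 1 cell, and what these prefixes stand for is not given in the labels. The labels name no embryo, litter or pool either, so the 29 cells were treated as 1 pooled sample. Cells are numbered 1 to 29 only to name them. No test, SE or p-value was computed across cells, and, apart from intervals on shares of cells, the spread is shown by the range over cells and by sets C and N523 taken separately. Counts of 10 or more for Xist were found in 5 of the 14 cells with Hmga2 and in 2 of the 15 without, and 10 or more counts over 4 Y-linked genes in 9 and 10 cells. Both groups thus held cells with Xist and cells with Y-linked transcripts. The tallies overlap in 2 cells, E12.5 cells 22 and 26, which held 69 and 48 counts of Xist and 662 and 21 Y-linked counts. They are 2 of the 3 Hmga2 cells of set N523, and whether they hold more than 1 cell was not tested. Without them 1246 genes were higher and 1193 lower with Hmga2, by the same rule as is used for all 29 cells.

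Hmga2 encodes a small chromatin protein that binds AT-rich DNA and alters its shape, and it belongs to the oncofetal genes, which are on in the embryo and off in most adult tissues. Its mRNA is a classic target of the let-7 microRNAs, which bind the 3′ untranslated region (UTR) through a short seed. LIN28 proteins block the maturation of let-7, and several other oncofetal genes, among them the Igf2bp genes, carry let-7 sites as well.

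In the 14 cells of group 1, Hmga2 ranged from 18 to 2273 counts, with a median of 134. In counts per 1000000 counts of the cell (CPM) this was 45.7 at the lowest, 258 at the median and 899 at the highest. No E12.5 cell held 1 to 9 counts, so the lowest cell inside the threshold had 18 counts and every cell outside it had 0. At E9.5 all 42 cells carried Hmga2, from 5.39 to 2389 CPM with a median of 566, and at P1 all 52 cells had 0 counts. The share of cells with Hmga2 was 48.3% at E12.5 (95% exact interval 29.4 to 67.5), 100% at E9.5 (from 91.6) and 0 of 52 at P1. The P1 zeros allow a share of up to 6.85% of cells with a count, not of cells expressing Hmga2. Libraries at P1 held 4903 to 327360 counts, in which 0 counts allow up to 612 CPM in the shallowest and 9.16 CPM in the deepest. In set C it was 50% (10 of 20 cells, 27.2 to 72.8) and in set N523 37.5% (3 of 8 cells, 8.52 to 75.5). These intervals describe the groups chosen by this gene, cover counting error over cells only and take the cells as independent, which the labels do not show.

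**Figure D1:**
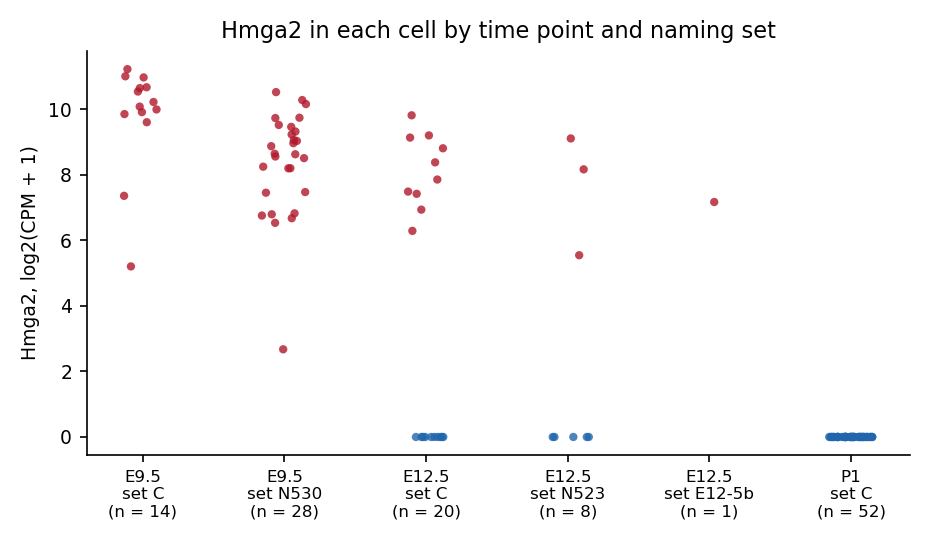
Hmga2 in each cell, as log2(CPM + 1) on the vertical axis, by time point and naming set on the horizontal axis. Red points are cells with Hmga2 counts and blue points cells with 0 counts. Both larger E12.5 sets hold cells at 0 and cells between 45.7 and 899 CPM, with none between 0 and 45.7 CPM.

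The zeros were not confined to shallow libraries. Group 1 had 148258 to 4620185 counts per cell (median 423493.5) and 3361 to 6327 genes found (median 4219.5). Group 2 had 162654 to 7711355 counts (median 540573) and 2565 to 5749 genes (median 4043). The deepest cell without Hmga2 held 7711355 counts, so that 0 counts there allow up to 0.389 CPM (3 counts), while in the shallowest, with 162654 counts, they allow up to 18.4 CPM. When each cell was thinned to 100000 counts, all 14 cells with Hmga2 kept at least 1 count, while cells at 0 could not change. These floors cover counting error only, since the reads carry no molecular identifiers and are not independent. All 3 cells with fewer than 3000 genes were in group 2.

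Hmga2 (ENSMUSG00000056758.14) lies on the minus strand at chr10:120361275-120476469 of GRCm38, the build named in the submitters' processing notes. The antisense gene 1700006J14Rik covers chr10:120364157-120384336 on the plus strand and so overlaps the Hmga2 3′ UTR and part of its body. The library chemistry does not mark strand, so reads of the pair cannot be told apart. Of 10 mature let-7 sequences of the mouse in RefSeq, 9 share the seed GAGGUAG (bases 2 to 8). In the longest annotated Hmga2 3′ UTR (GENCODE M21, 3014 bases, last exon), the 7-base match CTACCTC to that seed occurs 4 times on the sense strand. They are shown because they are the sequences by which Hmga2 is grouped with the other let-7 genes compared below. Capitals mark the seed in the microRNA and its match in the UTR, each line reads 5′ to 3′, and the microRNA is from RefSeq.
mmu-let-7a-5p: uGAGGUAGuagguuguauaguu
Hmga2 site 1, chr10:120364224-120364246: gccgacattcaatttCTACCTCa
Hmga2 site 2, chr10:120362987-120363009: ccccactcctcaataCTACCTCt
Hmga2 site 3, chr10:120362549-120362571: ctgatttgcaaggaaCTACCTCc
Hmga2 site 4, chr10:120361691-120361713: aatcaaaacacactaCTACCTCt
The microRNAs themselves were not measured by this assay.

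To ask what else differed between the groups, the mean CPM over the 14 cells with Hmga2 was divided by the mean over the 15 without, for each gene. The 6893 genes compared had a mean of 10 CPM or more in either group and at least 1 count in 25% of its cells, Hmga2 left out. A gene was counted as higher or lower only if it differed 2-fold or more over all 29 cells and, in the same direction, within set C. By this rule 1145 genes were higher with Hmga2 (16.6% of those compared) and 1113 lower (16.1%). These shares are the background against which each gene group below is read. The median log2 ratio over all genes was 0.09, with 0.04 in set C and 0.44 in set N523. With TMM factors computed on the summed counts of the groups, all log2 ratios over the 29 cells shifted by -0.53 (0.01 in set C). The split became 876 higher and 1352 lower. Set N523 supplied 30102894 of the 34489559 summed counts without Hmga2 and 11700494 of the 16049041 with it. The factors over the 29 cells thus rest mostly on that set, while the ratios weigh each cell alike.

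Differences within set C carried little into set N523. Within set C alone 1575 genes were 2-fold higher with Hmga2 (22.8%) and 1665 lower (24.2%). With 3 cells against 5, the counts of set N523 were 2889 (41.9%) and 2054 (29.8%). In that set 5403 to 6327 genes were found per cell with Hmga2 (median 6113) and 2565 to 5648 without (median 3401). How far this gap enters the ratios of set N523 was not tested. Of the genes higher in set C, 45.97% were also 2-fold higher in set N523, beside 41.9% of all genes compared. Of those lower in set C, 34.9% were 2-fold lower in set N523, beside 29.8%. Most single-gene differences in set C therefore had no counterpart in set N523, and the values of both sets are given where they part. Of 69 genes named here and counted as higher or lower, 22 came to less than 2-fold when 1 cell was left out, and those values stand beside each. In 56 of the 69 leaving out 1 cell moved the ratio by over 1.5 times, so the single values rest on few cells.

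**Figure D2:**
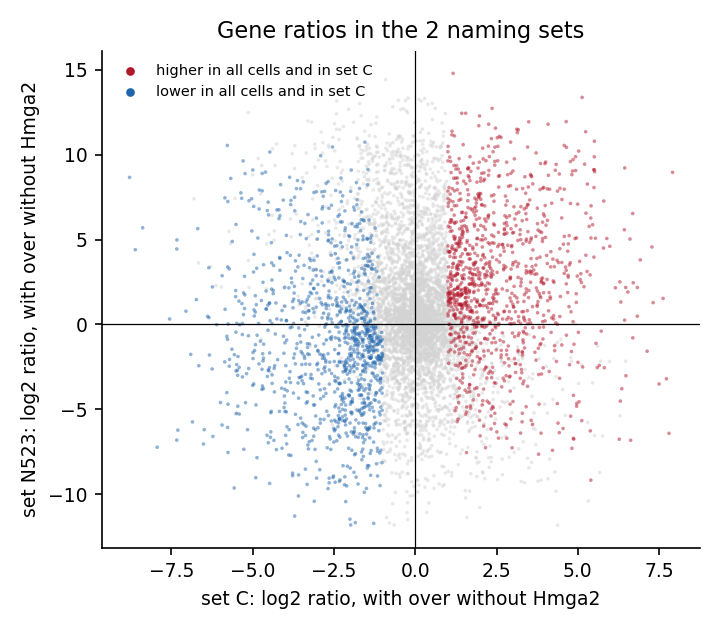
Log2 ratio of mean CPM, cells with Hmga2 over cells without, in set C (horizontal axis) and set N523 (vertical axis), 1 point per gene for 6670 genes with a ratio in both. Red and blue points are the genes counted as higher and lower, and both colours spread widely above and below 0 on the vertical axis.

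By the mean over cells, other genes typical of E9.5 did not go with Hmga2 as a group. E9.5-type genes were the 477 genes with at least 20 CPM at E9.5 and an 8-fold or higher mean there than at P1 in both E9.5 sets. No E12.5 cell took part in that choice. Of the 335 that entered the comparison, 62 (18.5%) were higher with Hmga2 and 63 (18.8%) lower, close to the shares of all genes. Their median log2 ratio was 0.01, with -0.12 in set C and 1.1 in set N523. It was 1.09 when each gene's median over cells took the place of its mean, and -0.52 with TMM factors. Summed over the list, the cells with Hmga2 held 20643 CPM at the lowest, 26836 at the median and 56299 at the highest. The cells without Hmga2 held 21483, 33183 and 41170. The ranges overlapped, with 3 Hmga2 cells above and 1 below all cells without it, and both groups lay between E9.5 (median 58360 CPM) and P1 (median 1530 CPM). The number of E9.5-type genes found per cell was 121 to 297 with Hmga2 (median 145) and 84 to 230 without (median 131).

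The 5 E9.5-type genes with the highest mean at E12.5, named by that level, differed by less than 2-fold over all 29 cells. Dpysl2, which acts on microtubules in growing axons, averaged 1682 CPM with Hmga2 and 1880 without. Mtap1b, a microtubule-associated protein gene, averaged 1546 and 1689 CPM, with a log2 ratio of -0.66 in set C but 4.44 in set N523. The transcription factor gene Sox11 averaged 1029 and 1128 CPM (log2 ratio 0.39 in set N523). Gpc3, which encodes a cell-surface proteoglycan that restrains growth, averaged 1109 and 660 CPM (log2 ratio 0.75, 0.87 in set C and 0.66 in set N523). Id2, an inhibitor of basic helix-loop-helix factors, averaged 1056 and 674 CPM (log2 ratio 0.65, -0.14 in set N523).

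**Figure D3:**
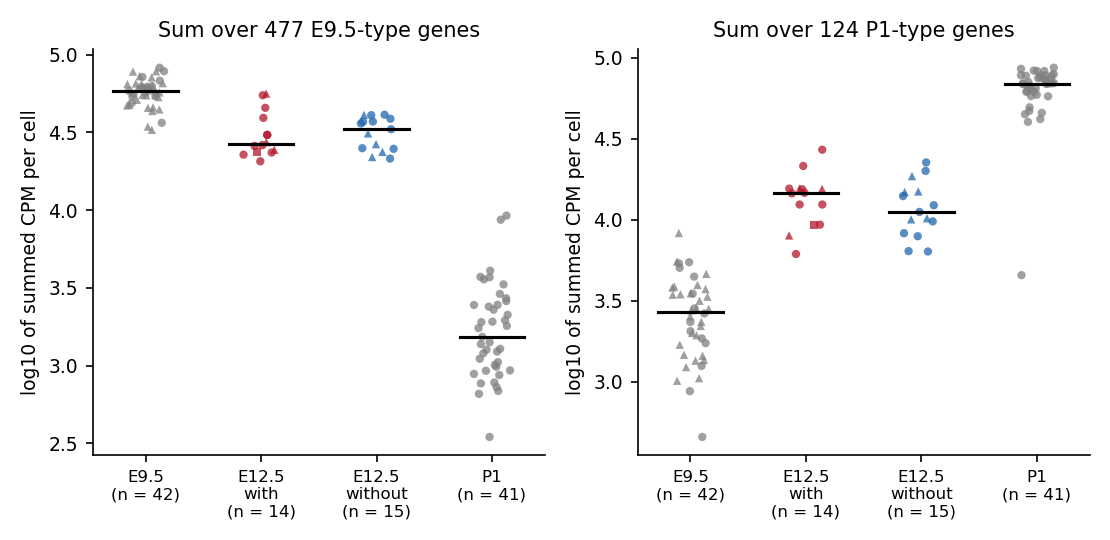
Summed CPM per cell on a log10 scale for the 477 E9.5-type genes (left) and the 124 P1-type genes (right), by group; circles are set C, triangles sets N523 and N530, the square set E12-5b, and lines are medians. P1 shows the 41 cells with 2000 or more genes, and the E9.5 and P1 cells chose the lists. The E12.5 groups overlap in both panels, with medians of 26836 and 33183 CPM on the left and 14612 and 11173 CPM on the right.

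The genes picked by the study as marking E9.5 cells had low mean levels at E12.5 in both groups; they were chosen on cells of this series and are no independent evidence of it. Of 5 such genes, Thbs4, Kif26b and Sall4 did not enter, the first 2 for a mean below 10 CPM in both groups and Sall4 for counts in too few cells. Thbs4, a matrix glycoprotein gene, averaged 3.17 CPM with Hmga2 and 5.44 without, beside 338 CPM at E9.5 (log2 ratio -1.05 in set C, 1.34 in set N523). Kif26b, a kinesin family gene, averaged 8.12 and 8.30 CPM, beside 99.9 CPM at E9.5 (log2 ratio -0.95 in set C, 3.14 in set N523). Sall4, a transcription factor gene of pluripotent cells, averaged 6.93 and 23.0 CPM, and was found in 3 of 14 and 2 of 15 cells. One cell without Hmga2 (E12.5 cell 27) held 341 CPM of Sall4, and the log2 ratio of -1.73 was 4.71 without that cell. In set C that ratio was 4.57, and in set N523 -4.54. Col2a1, a fibrillar collagen gene, averaged 34.2 CPM with Hmga2 and 13.6 without and was found in 5 and 4 cells, but its log2 ratio of 1.32 was -1.61 in set N523 and 0.68 without E12.5 cell 10. Prtg, an immunoglobulin family receptor gene of the early embryo, averaged 15.7 and 38.4 CPM and was found in 4 and 2 cells, with a log2 ratio of -1.30 that was 5.06 in set N523 and -0.24 without E12.5 cell 14.

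The let-7 and oncofetal genes differed between the sets. The list held 14 genes, of which 6 entered, 2 of them higher and 2 lower with Hmga2. Their summed level had a lowest, median and highest value of 111, 321 and 803 CPM with Hmga2 and of 0.149, 429 and 1331 CPM without. Their mean sums gave a log2 ratio of -0.28, with -0.76 in set C but 1.70 in set N523. Lin28b, the blocker of let-7 maturation, averaged 3.34 CPM with Hmga2 and 13.3 without and was found in 5 and 3 cells (log2 ratio -0.37 without E12.5 cell 1). Igf2bp1, whose product binds and stabilises mRNAs, averaged 107 and 125 CPM and was found in 11 cells of each group. Its log2 ratio was -1.13 within set C but 6.62 within set N523.

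The paralogues of Igf2bp1 went opposite ways. Igf2bp2 averaged 82.7 CPM with Hmga2 and 34.9 without (log2 ratio 1.24, 0.65 without E12.5 cell 18). Igf2bp3 averaged 39.9 and 128 CPM (log2 ratio -1.69, but 0.19 in set N523). Arid3a, a DNA-binding protein gene, averaged 12.54 and 2.83 CPM, in 4 and 2 cells, and its log2 ratio of 2.15 became -0.63 without E12.5 cell 20, 1 of the Hmga2 cells. Plagl2, a zinc finger factor gene, averaged 62.3 and 27.4 CPM (log2 ratio 1.18, but -0.46 in set C), and Trim71, another let-7 target, averaged 39.6 and 38.5 CPM (log2 ratio 1.90 in set C, -1.02 in set N523).

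Across all genes, the let-7 seed match was about as frequent among higher as among lower genes. A 3′ UTR could be read for 6168 of the 6893 genes (89.5%), and 9.87% of these UTRs held CTACCTC on the sense strand. The share was 12.51% among genes higher with Hmga2 (128 of 1023, median UTR length 1344 bases) and 10.5% among genes lower (106 of 1006, median 1426 bases), beside a median length of 1238.5 bases over all. The median log2 ratio of the 609 genes with a match was 0.15 (0.01 in set C), beside 0.09 for all genes. By comparison, 11 of the 12 oncofetal genes with a UTR held a match. A match is a run of letters and not a measured binding site.

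Genes of the mature heart were lower with Hmga2 by the median over genes in both sets, but not by every summary. P1-type genes were the 124 genes with at least 20 CPM at P1 and an 8-fold or higher mean there than in either E9.5 set. Of the 76 that entered, 10 (13.2%) were higher with Hmga2 and 17 (22.4%) lower, beside 16.6% and 16.1% of all genes. Their median log2 ratio was -0.24, with -0.43 in set C and -0.30 in set N523, beside 0.09, 0.04 and 0.44 for all genes. It ranged from -0.36 to 0.02 when each cell was left out in turn, the highest value being without E12.5 cell 14, and it was 0.06 with pooled counts. Summed over the list, cells with Hmga2 held 6138 CPM at the lowest, 14612 at the median and 27077 at the highest, and cells without held 6364, 11173 and 22600 CPM. The sum was thus higher at the median with Hmga2 while the median over genes was lower.

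Of the 5 most abundant P1-type genes, named by level, Pln alone passed the 2-fold rule. Myl2, the ventricular regulatory light chain of myosin, averaged 3044 CPM with Hmga2 and 1889 without (log2 ratio 0.69, -0.31 in set N523). Gja1, which encodes the gap junction protein connexin 43, averaged 1761 and 723 CPM (log2 ratio 1.28, 0.96 in set C and 3.64 in set N523). Pln, the phospholamban gene whose product restrains the calcium pump of the sarcoplasmic reticulum, averaged 1707 and 649 CPM (-0.09 in set N523 on the log2 scale). The fatty acid binding protein gene Fabp3 averaged 698 and 789 CPM, and the lactate dehydrogenase gene Ldhb 1309 and 1151 CPM, with log2 ratios of -0.26 and -0.31 in set N523. In that set 4 of the 5 thus had a log2 ratio below 0, none of them by 2-fold, beside 42.7% of all genes compared.

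The maturation list, 32 genes of adult contraction, calcium handling and metabolism, gave a summed level of 7644, 11593 and 17625 CPM (lowest, median, highest) with Hmga2 and 9293, 13677 and 20815 CPM without. The log2 ratio of the mean sums was -0.24, with -0.08 in set C and -0.48 in set N523. In 10 of 15 cells without Hmga2 the sum was above the median of the Hmga2 cells, and both groups lay far below P1 (median 57046 CPM). Of the 25 genes that entered, 4 were higher (Pln, Jph2, Ppargc1a and Esrra) and 2 lower (Cav3 and Esrrg). A log2 ratio above 0 was found for 8 and below 0 for 17, with a median of -0.33 (-0.26 in set C, -0.75 in set N523). Jph2, which tethers the sarcoplasmic reticulum to the plasma membrane, averaged 48.05 CPM with Hmga2 and 10.9 without. Ppargc1a, the coactivator of mitochondrial genes, averaged 265 and 106 CPM and was found in 14 and 10 cells. Esrra, a nuclear receptor gene of oxidative metabolism, averaged 20.5 and 8.68 CPM, with a log2 ratio of 1.24 that was -4.00 in set N523 and 0.41 without E12.5 cell 20.

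On the other side, Cav3, the muscle caveolin gene, averaged 26.4 CPM with Hmga2 and 163 without, and was found in 5 of 14 and 12 of 15 cells. Esrrg averaged 11.8 and 39.7 CPM, but 1 cell without Hmga2 held 506 CPM and without that cell the log2 ratio of -1.75 became 0.88. Tnni3, the cardiac troponin I gene, averaged 1135 and 1377 CPM, Csrp3, a Z-disc protein gene, 1291 and 1910 CPM, and Casq2, the calcium store protein gene, 124 and 253 CPM. None of the last 3 passed the 2-fold rule, and all 3 overlapped between groups.

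Few contractile and energy genes passed the 2-fold rule. Of 31 sarcomere genes that entered, 0 were higher and 3 lower with Hmga2, among them Myl7 and Nebl, and the summed level was 45542, 69395 and 91816 CPM with Hmga2 and 36414, 71870 and 133623 CPM without. Nebl, a nebulin-like Z-disc gene, averaged 39.8 and 151 CPM. Of 77 respiratory chain genes, 0 passed 2-fold in either direction, and the log2 ratio of their sums was -0.03 (0.17 in set C, -0.31 in set N523). Of 32 fatty acid and citrate cycle genes 2 were higher and 2 lower, 10 had a log2 ratio above 0 and 22 below, and the log2 ratio of their sums was -0.23 (0.03 in set C, -0.55 in set N523). Cpt1a and Cpt2, the mitochondrial carnitine transferases, averaged 65.5 and 187 CPM with Hmga2 and 4.69 and 37.4 CPM without, and the Cpt2 log2 ratio of 2.32 was 0.79 without E12.5 cell 22. Acadvl, a fatty acid dehydrogenase gene, averaged 37.9 CPM with Hmga2 and 97.0 without (log2 ratio -0.79 without E12.5 cell 3), and Etfdh, which passes electrons to the respiratory chain, 157 and 375 CPM.

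Genes of cell division were on in some cells of both groups. The mitosis list of 49 genes summed to 224, 2847 and 24805 CPM (lowest, median, highest) with Hmga2 and to 24.02, 1024 and 19125 CPM without, with 2 Hmga2 cells above every cell without it. The log2 ratio of the mean sums was 0.38, with 0.46 in set C and 0.56 in set N523, and it ranged from 0.02, without E12.5 cell 13, to 0.71, without E12.5 cell 2, when cells were left out in turn. With TMM factors it was -0.15. Of the 46 genes that entered, 8 were higher and 3 lower. Bub1, of the spindle checkpoint, averaged 133 and 3.20 CPM and was found in 6 and 2 cells, and Kif4, a mitotic kinesin, averaged 40.3 and 0.702 CPM. Without E12.5 cell 6 the log2 ratio of Bub1 went from 5.38 to 3.72 and that of Kif4 from 5.84 to 3.08. Ccnb1, the mitotic cyclin, averaged 246 and 119 CPM (log2 ratio 1.04, -0.05 without E12.5 cell 13). Top2a, which untangles chromosomes, averaged 437 and 316 CPM (log2 ratio -0.10 in set C). Aurka, a centrosome kinase gene, averaged 25.8 CPM with Hmga2 and 71.3 without (log2 ratio 1.23 in set N523 and -0.94 without E12.5 cell 2). Cdc25c, the phosphatase that starts mitosis, averaged 27.3 and 79.0 CPM (log2 ratio -0.57 without E12.5 cell 2).

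Of the 33 DNA replication genes that entered, 1 was higher and 8 were lower with Hmga2, with summed levels of 423, 1670 and 7707 CPM with Hmga2 and of 575, 2930 and 10560 CPM without. The log2 ratio of the mean sums was -0.37, but 0.10 in set C and -1.04 in set N523. Mcm7, a helicase subunit gene, averaged 108 and 33.7 CPM, and its log2 ratio of 1.68 was 0.46 without E12.5 cell 10 and -0.34 without the cells whose titles end in no. Its partner Mcm5 averaged 26.9 and 62.1 CPM (log2 ratio 0.59 in set N523 and -0.20 without E12.5 cell 17). Among G1 and S phase regulators, Ccnd1 averaged 141 and 59.8 CPM and Ccne1 20.4 and 1.56 CPM, both cyclin genes, while the kinase gene Cdk2 averaged 10.9 and 39.95 CPM. Without 1 cell the log2 ratio of Ccnd1 was 0.84 (cell 15) and that of Cdk2 -0.84 (cell 24), both below 2-fold.

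Chamber genes differed between the groups. In the developing heart Myl2, Myl3, Irx4 and Hey2 mark ventricular muscle, and Nr2f1, Nr2f2 (the COUP-TF factors), Tbx5, Sln and a high Myl7 mark atrial muscle. Of the 18 E12.5 cells with at least 1000 CPM of Myl2 and less than 50 CPM of Nr2f2, 12 had Hmga2 and 6 did not. All 8 cells below 1000 CPM of Myl2 had 50 CPM or more of Nr2f2, and of these 2 had Hmga2 and 6 did not. The remaining 3 cells had high levels of both genes and no Hmga2. Both thresholds were chosen after the values were seen, and the cells nearest to them held 645, 1042 and 1182 CPM of Myl2. The labels do not say from which chamber a cell came. The 2 Hmga2 cells with low Myl2 (E12.5 cells 8 and 22) held 121 and 45.7 CPM of Hmga2, beside 77.1 to 899 CPM in the other 12 cells. The split was 9 of 14 cells with Hmga2 at high Myl2 and 1 of 6 at low Myl2 in set C.

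**Figure D4:**
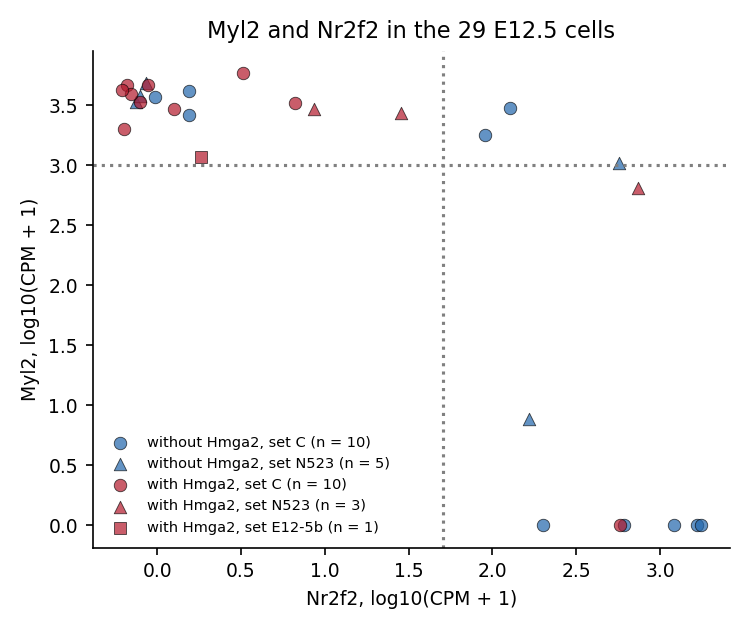
Myl2 (vertical axis) against Nr2f2 (horizontal axis), both as log10(CPM + 1), in the 29 E12.5 cells; cells under 1 CPM of Nr2f2 are spread sideways so that they can be seen. Red points have Hmga2 and blue points do not; dotted lines mark 1000 CPM of Myl2 and 50 CPM of Nr2f2. Of the 14 red points 12 lie at upper left with 6 blue ones, and the lower right holds 2 red and 6 blue points.

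Nr2f2 was at 0, 0 and 741 CPM (lowest, median, highest) in cells with Hmga2 and at 0, 127 and 1752 CPM in cells without. It was found in 6 of 14 and 11 of 15 cells, and its log2 ratio was -2.13 (-3.27 in set C, 0.81 in set N523). Myl7, the atrial regulatory light chain, was at 318, 2553 and 19810 CPM with Hmga2 and at 1353, 9096 and 34330 CPM without, and 11 of 15 cells without Hmga2 lay above the median of those with it. Its log2 ratio was -1.14 (-1.37 in set C, -0.37 in set N523). Over the 10 atrial genes the mean sum had a log2 ratio of -1.23 (-0.99 in set C and -1.18 in set N523). Myl7, Myl4 and Nppa led that sum, and without them the log2 ratio was -0.29. Nppa was also on the trabecular list, and its highest values, 32004 and 21985 CPM, were in 2 cells of set N523 without Hmga2 that held over 1000 CPM of Myl2 and less than 1 CPM of Nr2f2. The median log2 ratio over the atrial genes was -1.57, with -1.83 in set C but 0.22 in set N523. Of 8 that entered 0 were higher and 5 lower (Myl7, Sln, Nr2f1, Nr2f2 and Tbx5). Leaving out 1 cell took Myl7 to -0.85 (without E12.5 cell 25) and Tbx5 to -0.21 (without E12.5 cell 3), both below 2-fold. Sln, the atrial regulator of the calcium pump, averaged 50.6 and 388 CPM and was found in 3 and 5 cells, and its log2 ratio of -2.94 was -1.12 without E12.5 cell 25 and -5.66 without E12.5 cell 22. Nr2f1 averaged 35.6 and 134 CPM (6.04 in set N523 on the log2 scale), and Tbx5, a T-box factor gene, 57.0 and 133 CPM (4.97 in set N523). The values of set N523 rest on E12.5 cell 22, 1 of the cells with both Xist and Y-linked counts. Without it the log2 ratios in that set were -3.06 for Nr2f2, -1.46 for Tbx5 and 0.89 for Nr2f1, whose means were then below 1 CPM in both groups.

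The ventricular genes were higher with Hmga2 in set C and closer to equal in set N523. Their mean sum had a log2 ratio of 0.82 (1.22 in set C, 0.22 in set N523, and 0.29 over all cells with TMM factors), and the median over genes was 0.96 (1.20 in set C, -0.09 in set N523). The sums were 101, 12435 and 19932 CPM in cells with Hmga2 and 55.2, 8566 and 18831 CPM in cells without. Of 7 genes, 3 were higher and 0 lower. Irx4, a ventricular homeobox factor gene, averaged 30.0 and 6.07 CPM and was found in 7 and 5 cells, and its log2 ratio of 2.30 was 1.24 without E12.5 cell 26, 1 of the cells with both Xist and Y-linked counts. Hey2, a Notch-related repressor gene of the compact layer, averaged 132 and 65.8 CPM and was found in 10 and 6 cells (log2 ratio 1.00, -0.71 in set N523 and 0.66 without E12.5 cell 13). Pln was at 6.74, 1520 and 4217 CPM with Hmga2 and at 0, 539 and 1951 CPM without, and 6 Hmga2 cells lay above every cell without it (log2 ratio 1.4, 2.07 in set C and -0.09 in set N523). Myl2 had a log2 ratio of 0.69 and Myl3, the ventricular essential light chain, of 0.65, below 2-fold. In set C these ratios were 1.20 and 1.04, and in set N523 -0.31 and 0.16.

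Of 19 cardiac transcription factor genes that entered, 3 were higher (Nkx2-5, Hey2 and Irx4) and 7 lower with Hmga2. Hey2 and Irx4 were also counted as ventricular above, and Nr2f1, Nr2f2 and Tbx5, among the lower genes, as atrial. These counts thus repeat the chamber genes in part. Among the cells of high Myl2, 0 of 16 factor genes were higher and 3 lower. Over all 19 genes and cells the values were as follows. The mean sums of the factor genes had a log2 ratio of -0.68 (-0.97 in set C, 0.02 in set N523). The median over genes was -0.70, with -1.05 in set C but 1.38 in set N523. Nkx2-5, the early cardiac homeobox factor, averaged 18.0 and 5.60 CPM. Gata4, a zinc finger factor of the early heart, averaged 43.8 and 96.3 CPM, although it was found in 11 of 14 cells with Hmga2 and 10 of 15 without (log2 ratio -1.14, -0.60 without E12.5 cell 9). Mef2c, a muscle gene activator, averaged 111 and 349 CPM, and Tbx20, a T-box factor, 372 and 520 CPM (1.42 in set N523 on the log2 scale). Trabecular genes differed through few cells: Nppa, the natriuretic peptide gene, held 32004 and 21985 CPM in 2 cells without Hmga2 of set N523 and at most 1119 CPM in any cell with it. The log2 ratio of the trabecular sum was -3.37 over all cells and 0.70 in set C. Gja5, the connexin 40 gene, averaged 5.28 and 45.9 CPM.

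Some differences between the groups held also among the 21 cells at 1000 CPM or more of Myl2, 12 with and 9 without Hmga2. This cut did not match the groups by chamber genes. Of the 9 cells without Hmga2, 3 also held 50 CPM or more of Nr2f2, and of the 12 with it 0 did. Among the 21 cells 1483 genes were higher (21.4%) and 1044 lower (15%). Of the 1145 higher genes 829 (72.4%) were counted again, and of the 1113 lower genes 652 (58.6%). The cells are a part of the same cells, so this is no independent repeat. E9.5-type genes had a median log2 ratio of 0.39 in these cells, with 69 higher and 55 lower of 334, and P1-type genes of -0.07, with 10 higher and 18 lower of 74. Of 26 maturation genes 1 was higher and 5 were lower, and of 45 mitosis genes 10 were higher and 2 lower. Of the ventricular genes, 0 of 7 passed the 2-fold rule, and Pln averaged 1976 and 1030 CPM. Of 5 atrial genes 0 were higher and 2 lower (Myl7 and Nr2f2), with a median log2 ratio of -1.80, so atrial genes still differed in these cells. Of 33 DNA replication genes 0 were higher and 10 lower.

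The genes that separated the groups best were ranked by the share of the 210 pairs, 1 cell from each group, in which the cell with Hmga2 had the higher CPM. Among the higher genes Zfhx3, a large homeobox and zinc finger factor gene, led with 86.4% of pairs (80.5% in set C). It was at 0, 260 and 829 CPM with Hmga2 and at 0, 1.56 and 168 CPM without, found in 13 of 14 and 8 of 15 cells. Its log2 ratio was 2.83 (2.59 in set C, 3.68 in set N523), and 8 Hmga2 cells lay above every cell without it. Dld, the E3 subunit of the mitochondrial 2-oxo acid dehydrogenases, followed with 85.2% of pairs. It was at 32.8, 570 and 1353 CPM with Hmga2 and at 0, 104 and 562 CPM without (log2 ratio 1.72, 2.00 in set C and 1.13 in set N523). Ube4b, a ubiquitin ligase gene, reached 84.8% of pairs, with means of 60.9 and 1.18 CPM, and was found in 11 and 3 cells.

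Mycn, the growth-promoting transcription factor of the compact layer, reached 83.8% of pairs. This was the largest share among the E9.5-type genes counted as higher. Such a share compares the 2 groups only and does not follow the level of Hmga2 among the 14 cells. Mycn was at 0, 173 and 679.7 CPM with Hmga2 and at 0, 0 and 353 CPM without, found in 12 of 14 and 4 of 15 cells. Its log2 ratio was 2.61 (2.02 in set C, 4.99 in set N523), and within the cells of high Myl2 it was 1.97, but 0.98 in those of set C, so that Mycn did not pass the 2-fold rule there. Mycn, however, averaged 49.8 CPM at E9.5, below the 219 CPM of the Hmga2 cells at E12.5.

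The other higher genes of the ranking reached 81.9 to 84.3% of pairs. Metap2, an aminopeptidase gene, averaged 689.7 CPM with Hmga2 and 194 without, Hmgcs1, of sterol synthesis, 597 and 138 CPM, and Zkscan1, a zinc finger gene, 385 and 68.4 CPM. Acot13, a thioesterase gene, averaged 291 and 107 CPM, and Chchd4, of mitochondrial protein import, 147 and 13.4 CPM. Phf3, a gene with a PHD finger, averaged 90.1 and 7.11 CPM, Ciapin1, of iron-sulfur cluster assembly, 89.7 and 7.21 CPM, and Cbx1, a heterochromatin protein gene, 83.2 and 21.4 CPM. Their log2 ratios in set N523 were 1.12 to 4.84, which is no separate check, since cells of that set took part in the ranking.

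**Figure D5:**
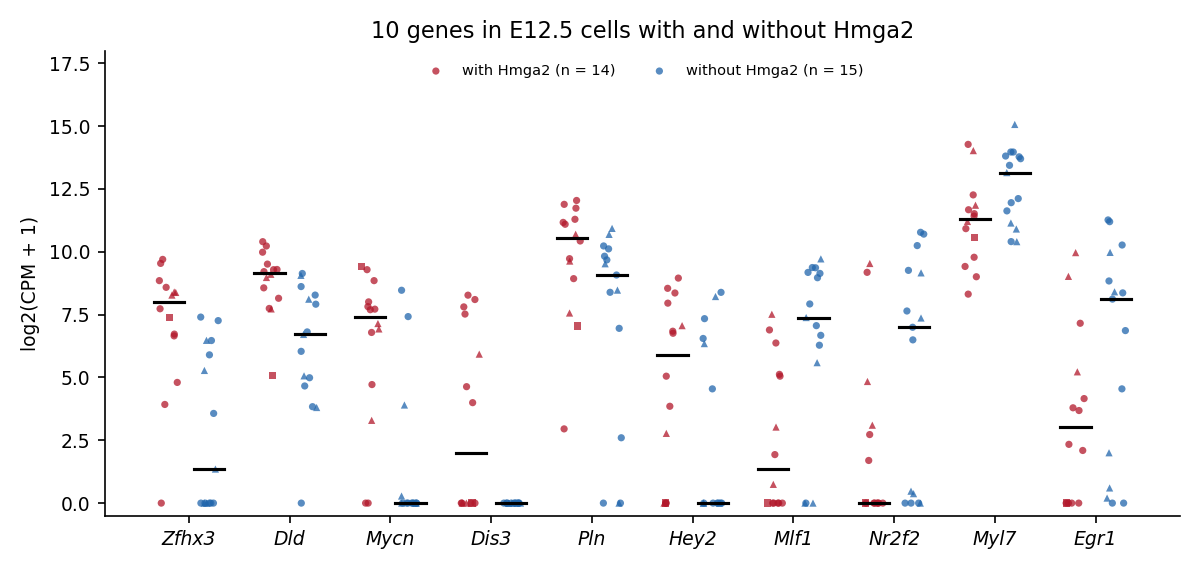
Log2(CPM + 1) in each E12.5 cell for 10 genes, with Hmga2 in red (14 cells) and without in blue (15 cells); circles are set C, triangles set N523, the square set E12-5b, and lines are medians. Dis3 was at 0 in all 15 blue cells, 7 blue cells lie above every red cell for Mlf1, and the groups overlap for all 10 genes.

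Among the lower genes Mlf1, a myeloid leukemia factor gene, led with 79.5% of pairs in favour of the cell without Hmga2. It was at 0, 1.74 and 182 CPM with Hmga2 and at 0, 166 and 841 CPM without, found in 8 of 14 and 12 of 15 cells. Its log2 ratio was -3.22 (-3.71 in set C, -1.74 in set N523), and 7 cells without Hmga2 lay above all Hmga2 cells. Mlf1 was also a P1-type gene, with 13.3 CPM at E9.5 and 866 at P1.

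The remaining lower genes of the ranking reached 74.3 to 79.0% of pairs. Ap3s2, of the AP-3 sorting complex, averaged 30.4 CPM with Hmga2 and 152 without and was found in 4 and 12 cells. Fitm1, of fat storage in muscle, averaged 30.9 and 99.7 CPM, Cav3 is given above, and Pcp4l1 averaged 22.2 and 171 CPM. Rab3b, a small GTPase gene of vesicle release, averaged 117 and 330 CPM, and Yif1a, of the secretory pathway, 39.4 and 187 CPM. Stub1, a chaperone-linked ubiquitin ligase gene, averaged 1.59 and 33.4 CPM, Wdr13 1.65 and 29.4 CPM, and Anxa7, an annexin gene, 1.60 and 37.7 CPM. Zfp36, whose product degrades cytokine mRNAs, averaged 7.96 and 64.0 CPM, and Zfp110, a zinc finger gene, 0.0692 and 93.1 CPM. Zfp110 was found in 1 cell with Hmga2 and 8 without. In set N523, whose cells took part in the ranking, the log2 ratios of Rab3b and Yif1a were -0.07 and -0.34.

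Immediate early and stress genes were lower in the cells with Hmga2 over all cells and in set C. The list of 12 genes summed to 0, 137 and 2490 CPM with Hmga2 and to 0, 890 and 6678 CPM without, and 13 of 14 Hmga2 cells lay below the median of the others. The log2 ratio of the mean sums was -1.87 (-2.76 in set C, -0.60 in set N523). In set N523 the value rests on E12.5 cell 28, without Hmga2 and at 6678 CPM: without it the log2 ratio there was 0.77, and the medians of the set were 822 CPM with Hmga2 and 688 without. Of 10 genes that entered, 0 were higher and 5 lower (Fos, Fosb, Egr1, Atf3 and Ier2). Egr1 was at 0, 7.95 and 1000 CPM with Hmga2 and at 0, 277 and 2464 CPM without, but its log2 ratio of -2.20 was 0.94 in set N523. Fos averaged 94.0 and 239 CPM, Atf3 50.4 and 441 CPM, Ier2 7.41 and 46.4 CPM, and Fosb 2.96 and 10.6 CPM, all of them transcription regulators that respond quickly to stimuli. Fos and Fosb fell below 2-fold without 1 cell, at log2 ratios of -0.86 (cell 25) and -0.76 (cell 14). Such genes can come on when tissue is digested, and their part in the other differences was not tested. Among the cells of high Myl2, 1 of 10 was higher and 6 were lower.

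The gene most like Hmga2 over the 29 cells was Dis3, a catalytic subunit gene of the RNA exosome (Spearman correlation of CPM 0.65). It was found in 7 of 14 cells with Hmga2, up to 309 CPM, and in 0 of 15 without. Its mean was 77.6 CPM with Hmga2 and 0 without. Dis3 entered the comparison only through the cells with Hmga2 and was picked from the genes compared for its likeness to Hmga2. The split of 7 and 0 cells is therefore a description only. Zfhx3 (0.65), Pcdh7, a protocadherin gene (0.65), Itga1, an integrin gene (0.65), and Dld (0.62) followed. Pcdh7 averaged 125 and 18.0 CPM, found in 11 and 3 cells, and Itga1 36.4 and 0.0681 CPM, found in 7 and 1 cells. For Itga1 1 Hmga2 cell held 392 CPM and the next 71.7 CPM. Much of these values rests on the 15 zeros shared by the cells without Hmga2. Over the 14 Hmga2 cells alone the correlations of these 5 genes with the Hmga2 level were 0.28 to 0.59. Another 5 genes were highest over those 14 cells, at 0.76 to 0.83. Among them were the E9.5-type genes Gpc3 (0.77) and Cdkn1c, a cell cycle inhibitor gene (0.76), at 0.47 and 0.31 over all 29 cells. They were picked as the highest of all genes compared, so their values are a description only. The points also share naming set and depth.

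Both groups matched the label of αMHC+ muscle cells. The cardiomyocyte list of 12 genes summed to 28700, 45734 and 67502 CPM with Hmga2 and to 18534, 47222 and 105899 CPM without. Of 11 endothelial, 10 erythroid, 8 macrophage and 4 neural crest genes in the table, 0 entered the comparison in any list. Endothelial genes reached at most 13.5 CPM in any cell with Hmga2 and 2.79 CPM without, and macrophage genes 229 and 30.2 CPM. Fibroblast and mesenchyme genes were at a median of 0.169 CPM with Hmga2 and of 0 without, with highest values of 641 and 513 CPM. Of 9 epicardial genes 2 entered. Of 6 smooth muscle genes 4 entered, and their list summed to a median of 2114 CPM with Hmga2 and 2719 without, with highest values of 10003 and 8853 CPM.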

How the data were processed

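Single-cell reads were mapped by the authors with OLego and counted per gene symbol with featureCounts, and the submitters' processing notes name GRCm38 (mm10). The deposited counts are raw whole numbers. The deposited TPM were computed by the authors from those counts and served as an alternative. CPM were computed from the counts with Python 3.11.15, pandas 2.3.3 and scipy 1.17.1, and TMM factors with edgeR 4.0.16. Smart-seq reads cover whole transcripts, so CPM grow with gene length and were compared only within a gene. A group at 0 was put at a floor of 3 counts in its shallowest cell. No comparison was tested, because the cells are not replicates. The calculation was tested on simulated data.

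Named genes were Hmga2, the study's E9.5 genes, the let-7 list, genes past 2-fold and leading genes of fixed lists, the 12 genes a direction with the largest pair share, and the 5 most like Hmga2. The groups, thresholds and lists were chosen with earlier results of these data known. Some members of the lists were counted but are not reported here by name. The Myl2 and Nr2f2 thresholds, the let-7 search and the leading stage-type genes were chosen after seeing the data.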

Additional observations from a re-analysis of the deposited data

How the results depend on the processing

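No paired analysis was possible because the replicate numbers are only names given in accession order. Set C, set N523, cells without titles ending in no, each cell left out, thinning to 100000 counts, grouping after thinning, pooled CPM, median over cells, TMM, TPM, other filters, 4-fold thresholds and other summaries of lists were tried, and restriction to high Myl2, to cells with 3000 or more genes or to cells without joint Xist and Y-linked counts was chosen after seeing the data. The count of 1145 higher genes was 2889 in set N523, 2122 with no filter, 290 at a mean of 50 CPM or more over all cells and 563 at 4-fold, and 1083 to 1248 with each cell left out. The 1113 lower genes were 2054, 2137, 400 and 481 under the same settings, 708 with pooled CPM and 330 by the median over cells, and 1005 to 1185 with each cell left out. The mean over all cells for the 50 CPM filter was chosen after seeing the data. Read as a mean in either group, like the main filter, it left 586 lower genes, and the higher genes were also fewer than the main count by over 1.5 times. The cause of each move was not tested, except that the filter and the fold set how many genes can pass.

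The E9.5-type median log2 ratio of 0.01 was 1.1 in set N523 and 1.09 by the median over cells, and -0.09 to 0.17 with each cell left out. The P1-type median of -0.24 was -0.43 in set C, -0.60 without titles ending in no, 0.062 pooled, 0.45 by the median over cells, -0.77 with TMM, -0.069 at high Myl2, -0.15 without cells below 3000 genes, and -0.36 to 0.018 with each cell left out. The mitosis ratio of 0.38 was 0.46 in set C, 0.56 in set N523, 0.18 without titles ending in no, 0.52 pooled, 1.47 by the median over cells, -0.15 with TMM, 0.45 with TPM, 0.64 at high Myl2, 0.48 without cells below 3000 genes, and 0.020 to 0.71 with each cell left out. The maturation ratio of -0.24 was -0.77 with TMM, and -0.29 to -0.19 with each cell left out. The atrial ratio of -1.23 was -0.99 in set C, -1.45 pooled, -1.78 by the median over cells, -1.76 with TMM, -1.57 by the median over genes, -0.29 without its 3 leading genes, -1.79 at high Myl2, -1.08 without cells below 3000 genes, -1.47 without the 2 cells holding both Xist and Y-linked counts, and -1.51 to -1.07 with each cell left out. Without those 2 cells the E9.5-type median was 0.13, the P1-type median -0.23, and the mitosis, maturation, ventricular and stress ratios 0.43, -0.27, 0.84 and -2.64. The ventricular ratio ranged from 0.72 to 1.02 and the stress ratio from -2.53 to -1.50 with each cell left out.

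Signs turned for these results among those past the 2-fold rule. In set C the trabecular ratio was 0.70. In set N523 Col2a1 was -1.61, Prtg 5.06, Igf2bp3 0.19, Arid3a -0.65, Hey2 -0.71, Pln -0.093, Nr2f1 6.04, Nr2f2 0.81, Tbx5 4.97, Egr1 0.94, Aurka 1.23, Mcm5 0.59 and Esrra -4.00. Without titles ending in no, Arid3a was -0.0094, Nr2f1 0.43, Tbx5 3.31 and Mcm7 -0.34. Pooled, Tbx5 was 1.72, Egr1 0.091, Aurka 0.83 and Mcm5 0.29. By the median over cells Gata4 was 0.60 and Cdk2 0.10. With 1 cell left out Arid3a ranged from -0.63 (without E12.5 cell 20) to 3.24, Ccnb1 from -0.046 (without cell 13) to 1.45 and Esrrg from -2.06 to 0.88 (without cell 1). In all, 23 gene values and 1 list value past the 2-fold rule changed sign under settings that do not leave out a single cell, as did 49 gene values and 22 list values below it, and 846 gene values and 154 list values moved by less than the SD of sets C and N523. Set N523 holds 3 cells with Hmga2 and 5 without, so its ratios rest on few cells.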
